A study of Arabidopsis thaliana with 14 samples.

Results

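In developing siliques of Arabidopsis thaliana, 82 of 27394 annotated genes had next to no RNA in wild type (WT) and were measured in every library of the jas-3 background, and these genes are described here. The genes were selected on their counts. A gene was taken when it had at most 3 counts in each of the 2 WT libraries and at least 50 counts in each of the 12 other libraries. These thresholds were met by 93 genes, of which 8 were left out as paternally expressed genes on the study's list, 2 as members of a tandem cluster of S1-protein homologs and 1 as a germin-like gene. The difference between WT and the rest therefore chose the genes, and it is given below as counts with no test.

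The study sequenced messenger RNA of siliques, the seed pods, collected 6 to 9 days after anthesis, with 3 siliques per library and a photoperiod of 16 h. WT was Col-0 (n = 2 libraries), and all other plants carried jas-3, a SAIL T-DNA insertion allele of JASON in the same accession. The jas-3 libraries (n = 2) came from untreated plants, the DMSO libraries (n = 3) from jas-3 solvent controls, and the Aza1 libraries from descendants of a jas-3 plant given 5-Azacytidine as a germinating seed and seedling. Aza1 eM2 (n = 3, titled eM1 in the sample labels) was the earlier and Aza1 eM3 (n = 4, titled eM2 there) the later generation by self-fertilisation. These generation names are the study's. They were matched to the labels by the number of libraries and the order of generations, which the labels do not settle. All Aza1 libraries go back to 1 treated line. The labels call the WT, jas-3 and DMSO libraries biological replicates, and the study took the Aza1 eM3 libraries from different sibling plants. For Aza1 eM2 the labels give only a replicate number.

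JASON acts in male meiosis, and its loss gives a mix of haploid and diploid pollen, so that a jas-3 silique holds diploid seeds beside triploid seeds with an excess of paternal genomes. In such triploid seeds the endosperm, the tissue that feeds the embryo, often fails to become cellular and the seed aborts, which is known as the triploid block. 5-Azacytidine is a cytidine analog that lowers DNA methylation, and reduced methylation of the paternal genome is known to weaken this block. Silique RNA pools the silique wall, seed coat, endosperm and embryo, so fewer cells of a type and less RNA per cell cannot be told apart in any comparison below.

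Several of the genes had annotated products of a few families. Groups were formed from the annotated products after the values were known, and these were SCF and ubiquitin genes (13), DNA-binding protein genes (10), defensin-like and cysteine-rich peptide genes (10), DNA replication and chromosome genes (7), and invertase and pectin methylesterase inhibitor genes (4). SCF complexes, built on a cullin and an SKP1-like adaptor, use F-box proteins to choose targets for ubiquitin, the tag for protein breakdown. Defensin-like and low-molecular-weight cysteine-rich (LCR) genes encode short secreted peptides, many of them known from reproductive tissue. Of the 82 genes, 8 encoded F-box proteins, which was 9.76% of them beside 2.30% of all annotated genes, and 13 encoded small secreted or cysteine-rich peptides (15.9% beside 3.06%).

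The promoters of 6 of the genes are shown because the results turn on these genes, or because the promoter holds a CArG box, the element bound by MADS-domain factors, several of which act in early endosperm. They were picked after the expression values had been seen. Each is the 250 bases before the annotated start, read 5′ to 3′ on the gene's own strand from the RefSeq assembly TAIR10.1. In the first 3, capitals mark the TATA box TATAAA on either strand, and these are the genes with the lowest estimates in Aza1 eM2 against DMSO.
SK3, chr2:10949627-10949876, minus strand: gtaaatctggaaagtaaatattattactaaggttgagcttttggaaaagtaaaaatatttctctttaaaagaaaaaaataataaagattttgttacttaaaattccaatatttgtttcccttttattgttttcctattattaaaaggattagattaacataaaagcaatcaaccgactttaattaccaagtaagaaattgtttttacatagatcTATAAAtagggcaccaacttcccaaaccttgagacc
AT3G61500, chr3:22762389-22762638, minus strand: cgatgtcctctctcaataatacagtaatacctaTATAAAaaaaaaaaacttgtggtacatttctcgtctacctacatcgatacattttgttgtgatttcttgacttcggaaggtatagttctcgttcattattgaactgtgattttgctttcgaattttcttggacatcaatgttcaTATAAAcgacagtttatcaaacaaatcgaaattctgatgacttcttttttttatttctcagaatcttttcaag
AT4G18870, chr4:10345918-10346167, plus strand: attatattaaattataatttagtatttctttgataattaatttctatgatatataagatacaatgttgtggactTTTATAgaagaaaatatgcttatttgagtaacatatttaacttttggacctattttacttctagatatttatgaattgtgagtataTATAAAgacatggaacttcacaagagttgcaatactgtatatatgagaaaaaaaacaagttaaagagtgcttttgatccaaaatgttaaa
In the next 3, capitals mark the CArG box. The first of them belongs to a translation initiation factor gene that fell in Aza1 eM2 and the next to an F-box gene, while LCR27 had nearly the same level in Aza1 eM2 and DMSO.
AT2G27700, chr2:11816003-11816252, minus strand: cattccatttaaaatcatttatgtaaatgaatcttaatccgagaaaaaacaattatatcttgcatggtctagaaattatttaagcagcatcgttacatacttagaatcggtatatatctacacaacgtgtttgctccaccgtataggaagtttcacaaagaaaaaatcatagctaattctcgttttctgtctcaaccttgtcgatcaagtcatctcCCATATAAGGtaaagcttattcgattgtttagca
AT3G51171, chr3:19010555-19010804, plus strand: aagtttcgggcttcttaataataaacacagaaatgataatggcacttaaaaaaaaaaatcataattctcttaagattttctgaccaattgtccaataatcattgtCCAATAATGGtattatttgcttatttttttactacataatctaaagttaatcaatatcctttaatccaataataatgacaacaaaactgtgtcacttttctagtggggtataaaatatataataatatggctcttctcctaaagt
LCR27, chr4:14434525-14434774, minus strand: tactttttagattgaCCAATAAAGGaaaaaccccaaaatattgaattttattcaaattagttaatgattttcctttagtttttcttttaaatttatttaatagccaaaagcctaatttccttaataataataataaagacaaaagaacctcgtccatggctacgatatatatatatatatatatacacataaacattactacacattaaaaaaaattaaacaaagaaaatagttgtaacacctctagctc
A CArG box, searched on both strands of 300 bases (250 before and 50 after the start), was found at 7 of the 82 genes (8.54%) and at 3.06% of other protein-coding genes. It was present at 1 of the 32 genes that fell in Aza1 eM2 and at 4 of the 35 whose adjusted p was 0.05 or more there. The TATA box was found at 67.1% of the genes and 52.6% of others. The W-box TTGACC (15.9% beside 14.1%), the telobox AAACCCT (9 of the 82 beside 9.97%) and the RY element CATGCA (8.54% beside 9.78%) were about as common in both sets, and the G-box CACGTG was found at 2.44% beside 7.81%. Matches of different motifs overlapped 2 times, each a CArG box with a W-box, at LCR29 and LCR27. The promoters of the set were richer in A and T, with a median GC content of 28.3% beside 32% in other protein-coding genes. The part of base composition in these motif shares was not tested. A match is a run of letters and not evidence of binding.

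The libraries were of similar size, with 40526464 to 43974069 counts on genes. The counts were even more often than odd, with 73.7% to 79.0% of values from 1 to 20 being even, so the number of independent fragments is lower than the counts. JASON itself had 14 counts in each WT library and 80 to 225 in every library labelled as jas-3 or derived from it. Gene totals do not show where in the gene those reads lie, so the label of the mutant could not be checked this way. Markers fixed for seed coat (9 genes), silique wall (6) and embryo (11) were measured in all libraries, and none of these 3 lists held a gene called between DMSO and Aza1 eM2 at the fold and adjusted p thresholds used below. One embryo marker, LEC2, a regulator of embryo maturation, fell at an adjusted p under 0.05 with no fold minimum, with a log2 fold change of −0.91 (SE 0.15, adjusted p = 0.0043 in edgeR). Over the 11 embryo markers the median was 0.08. LEC1 was at −0.84 (SE 0.22, adjusted p = 0.0586 in edgeR). In the other direction FUS3 was at 0.58 and ABI3 at 0.68, without passing the test. LEC2 had 4 and 2 counts in WT, 621, 564 and 480 in DMSO, 197, 274 and 250 in Aza1 eM2 and 528 to 600 in Aza1 eM3, where it rose by 1.05 against Aza1 eM2 (SE 0.15, adjusted p = 0.00305). Summed seed coat markers were 26885 to 31696 in WT, 52520 to 91368 in jas-3, 39646 to 55576 in DMSO, 25668 to 41157 in Aza1 eM2 and 28687 to 45563 in Aza1 eM3, and their part in the results was not tested. Seed storage protein genes, which mark maturing seeds, differed between groups and are given beside the results.

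In WT the genes were nearly empty. Summed over the 82 genes, WT replicate 1 had 51 counts and WT replicate 2 had 52, and 45 of the genes had no count in either library. A count of 0 allows up to 3 fragments, which is above the threshold of 3 counts where a fragment gave more than 1 count. In jas-3 the summed counts were 61843 and 67003, and in DMSO they were 86321, 68385 and 54558. Aza1 eM2 stood lower, at 12410, 19451 and 15880, and Aza1 eM3 reached 71811, 37196, 63526 and 33262. No Aza1 eM2 library overlapped another jas-3-background group, and all 4 Aza1 eM3 libraries lay above all 3 of Aza1 eM2. Some genes outside the set were also low in WT. LEC1 had 67 and 32 counts in WT beside 3540 and 2735 in jas-3. The endosperm genes ZOU (40 and 14 beside 1693 and 1196) and ALE1 (22 and 26 beside 2999 and 2368) were low as well. The embryo marker ABI3 was higher in WT, at 8406 and 9362 beside 5399 and 5724. Whether WT siliques held seeds of another stage was not tested.

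**Figure D1:**
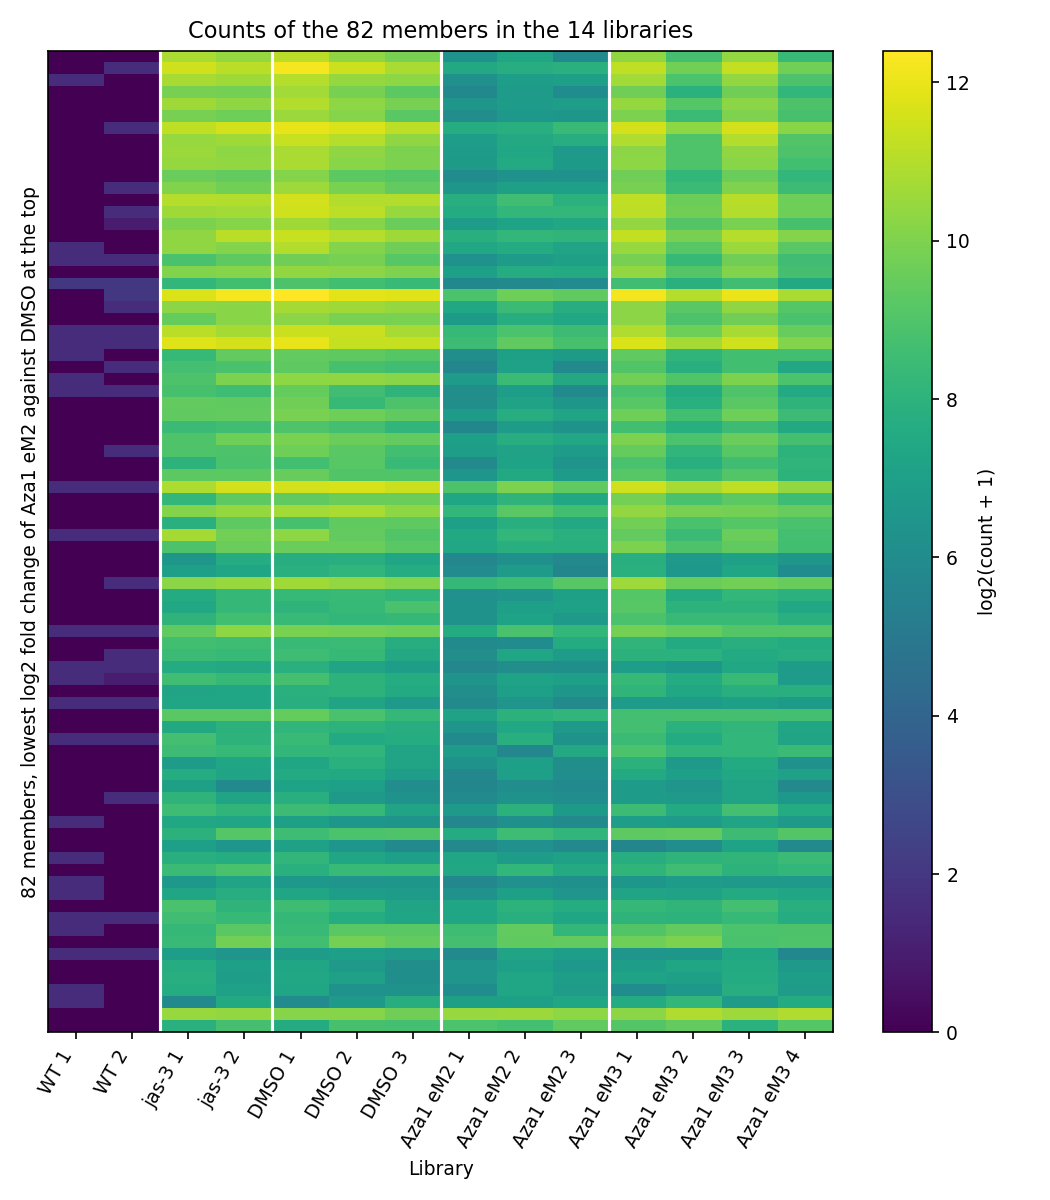
Heat map of the counts of the 82 genes in each of the 14 libraries (colour scale of log2 of count plus 1), with the libraries set out by group. Genes are ordered by log2 fold change in Aza1 eM2 against DMSO, with the lowest at the top. The median gene had 0 counts in WT, 415.5 to 655.5 in jas-3 and DMSO, 99 to 157 in Aza1 eM2 and 319 to 578 in Aza1 eM3.

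As a share of all gene counts, the 82 genes took 0.000127% ± 1.17e-06 (SD, n = 2) in WT, 0.154% ± 0.00913 (n = 2) in jas-3, 0.165% ± 0.0403 (n = 3) in DMSO, 0.0385% ± 0.00824 (n = 3) in Aza1 eM2 and 0.122% ± 0.0436 (n = 4) in Aza1 eM3. The 9 seed storage genes moved the other way between several groups. They took 37.2% and 43.1% of counts in WT, 8.03% and 17.2% in jas-3, and 10.7%, 19.7% and 22.8% in DMSO. In Aza1 eM2 their share was 31.0%, 22.0% and 30.4%, and in Aza1 eM3 it was 19.1%, 27.1%, 15.0% and 27.8%. At nearly the same storage share, Aza1 eM2 replicate 2 (22.0%) was below DMSO replicate 3 (22.8%) in 66 of the 82 genes (80.5%, beside 60.1% of all tested genes). Aza1 eM3 replicates 2 and 4, at 27.1% and 27.8%, were above all 3 Aza1 eM2 libraries in 62 of the 82 (75.6%, beside 15.6%). The part of the storage share in the differences was not tested by these pairs of libraries, which were picked after the values were seen.

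**Figure D2:**
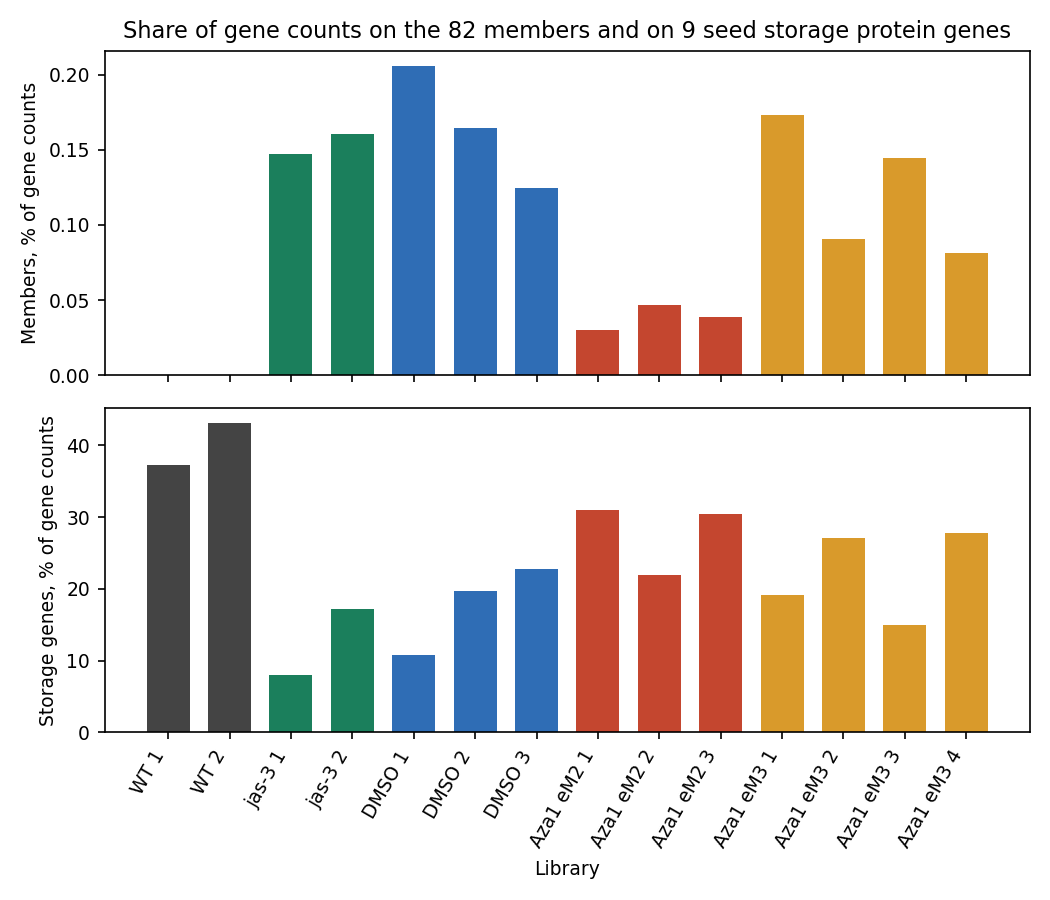
Percent of all gene counts on the 82 genes and on the 9 seed storage protein genes, for each of the 14 libraries. The 82 genes took 0.0302% to 0.0467% in Aza1 eM2 and 0.125% to 0.206% in DMSO, while storage genes took 22.0% to 31.0% and 10.7% to 22.8%.

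The comparison of Aza1 eM2 with DMSO asked how the genes behaved in the line in which 5-Azacytidine had been used, and the rule had not used it, apart from the floor of 50 counts. Of the 82 genes, 32 fell and 0 rose by 2 or more on the log2 scale with an adjusted p under 0.01 (edgeR's quasi-likelihood test, Benjamini-Hochberg over 22359 genes). This was 39.0% of them, beside 1.44% of all tested genes called down and 0.0716% called up. At an adjusted p under 0.05 with no fold minimum 47 fell, beside 3.65% of tested genes. None rose there, beside 0.523%, and at an unadjusted p under 0.05 in edgeR 58 fell (9.81% of tested genes) and 1 rose (7.52%). DESeq2 called 33 down, 32 of them shared with edgeR, and 0 up. The median log2 fold change of the genes was −1.47 (range −3.64 to 0.87), beside 0.01 over all tested genes. Counts of the groups did not overlap, with Aza1 eM2 lower, for 60 genes, beside 25.4% of tested genes. The count of 32 was 7 without Aza1 eM2 replicate 1, 21 without Aza1 eM2 replicate 3 and 19 with the storage share as a covariate.

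The share was also set beside genes that had at least 50 counts in all 12 libraries but were not in the set. Of 784 such genes called up in jas-3 against WT, which shares no library with this comparison, 81 (10.3%) fell in Aza1 eM2, with a median of −0.44. Of the 16157 not called up in jas-3, 5 (0.0309%) fell, with a median of 0.04. The floor of 50 counts limited how far a gene of low level could fall and stay in the set. Among the 41 genes with a median count above 429.75 over the 12 libraries, 26 fell, with a median log2 fold change of −2.39, and among the other 41, 6 fell, with a median of −0.76.

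Genes of the SCF and ubiquitin group fell in the largest share of the 5 groups. Of 13, 11 fell at the main thresholds and 13 at an adjusted p under 0.05, and their median log2 fold change was −2.65 (range −3.57 to −1.24). SK3 (AT2G25700, chr2:10948747-10949626, minus strand in TAIR10), an SKP1-like adaptor of SCF complexes, had 2946 and 2255 counts in jas-3, 4757, 2820 and 1813 in DMSO, 176, 214 and 236 in Aza1 eM2, and 2376, 852, 2488 and 860 in Aza1 eM3. All Aza1 eM2 libraries lay below all libraries of the other 3 groups, and WT had 0 and 2 counts. Its log2 fold change in Aza1 eM2 against DMSO was −3.57 (SE 0.42, adjusted p = 0.00104).

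The F-box and jacalin lectin gene AT3G59610 (chr3:22019553-22021308, plus strand) had 1605 and 1302 counts in jas-3, 2004, 1239 and 923 in DMSO, 92, 114 and 122 in Aza1 eM2, and 1379, 568, 1226 and 493 in Aza1 eM3. It repeated the order of SK3, with Aza1 eM2 apart from every other jas-3-background library and 0 counts in both WT libraries, and its log2 fold change was −3.34 (SE 0.36, adjusted p = 0.00101). The SKIP23-like F-box gene AT3G25750 had 1842, 1302 and 1002 counts in DMSO and 112, 166 and 100 in Aza1 eM2, a log2 fold change of −3.15 (SE 0.33, adjusted p = 0.00101). The remaining F-box genes had their smallest change in AT1G47810, at −1.24, and 2 of the 8, AT1G47810 and AT3G51171, did not reach the fold minimum. Of the other ubiquitin genes, UBC31, a ubiquitin-conjugating enzyme, had 2669, 2731 and 1730 counts in DMSO and 317, 475 and 356 in Aza1 eM2. Its log2 fold change was −2.35 (SE 0.30, adjusted p = 0.00116), and the values were −2.50 (SE 0.33, adjusted p = 0.00152) for the cullin-family gene AT1G59800 and −2.65 (SE 0.33, adjusted p = 0.00134) for the IBR-domain gene AT2G21420.

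**Figure D3:**
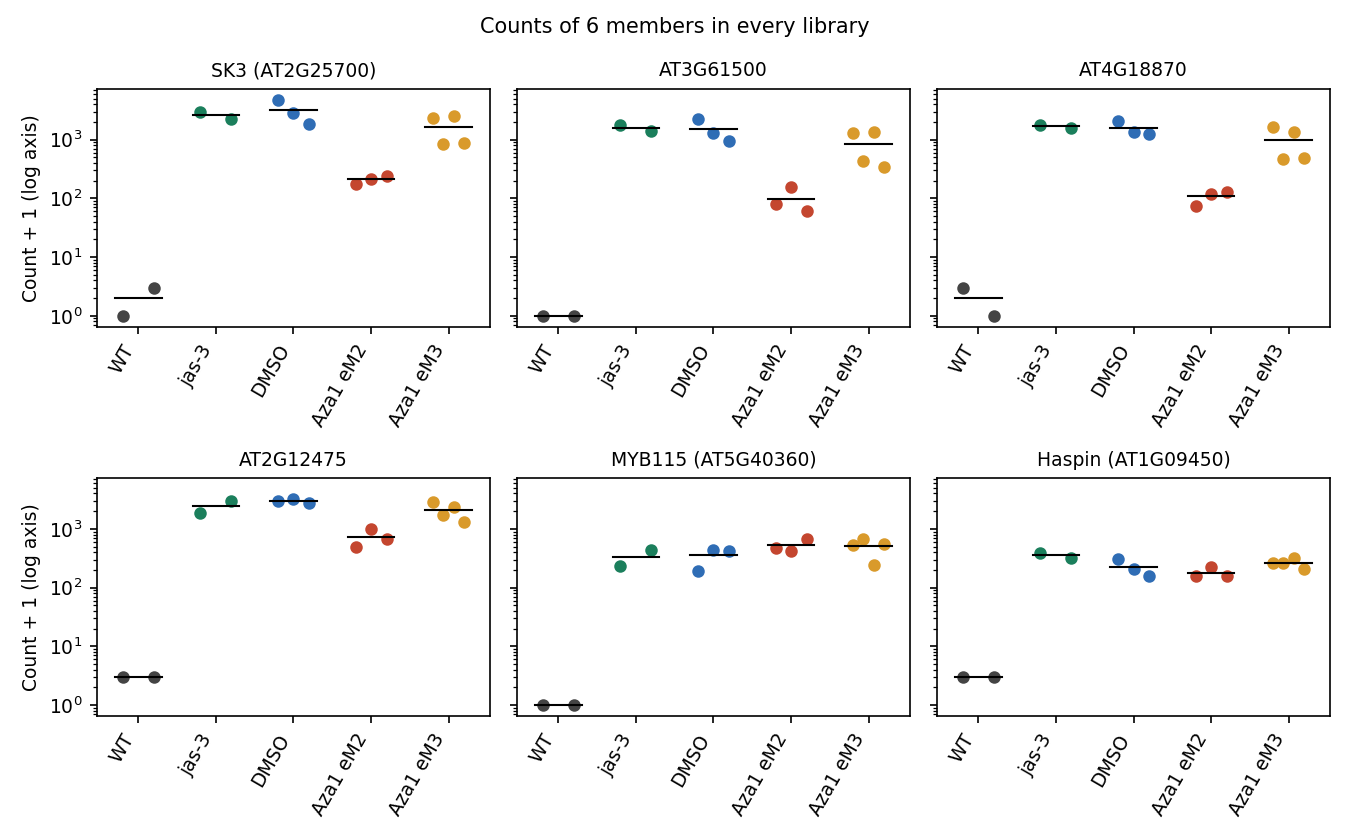
Counts (plus 1, log axis) of SK3, AT3G61500, AT4G18870, AT2G12475, MYB115 and Haspin in each library, with a bar at the group mean. SK3 fell from 1813 to 4757 counts in DMSO to 176 to 236 in Aza1 eM2, while Haspin had 154 to 306 in DMSO and 154 to 220 in Aza1 eM2 and MYB115 had 194 to 443 and 420 to 671.

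Among DNA-binding proteins, of 10 genes 7 fell at the main thresholds, with a median of −2.68 (range −3.56 to 0.87). AT4G18870 (chr4:10346168-10347228, plus strand), which carries the winged-helix domain of E2F and DP cell-cycle factors, had 1752 and 1596 counts in jas-3, 2097, 1364 and 1251 in DMSO, 74, 119 and 127 in Aza1 eM2, and 1664, 468, 1361 and 483 in Aza1 eM3. Aza1 eM2 was again below every other jas-3-background library, and the log2 fold change was −3.56 (SE 0.43, adjusted p = 0.00104).

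The homeodomain-like gene AT4G04580 (chr4:2293761-2294906, minus strand) had the largest coefficient of variation of the set over the 12 libraries, 0.711. It had 913 and 892 counts in jas-3, 1631, 937 and 613 in DMSO, 55, 113 and 65 in Aza1 eM2, and 843, 245, 835 and 297 in Aza1 eM3, and its log2 fold change was −3.47 (SE 0.47, adjusted p = 0.00174). The NAC-domain gene AT3G56520 (chr3:20947107-20947731, minus strand), of a plant-specific transcription factor family, had 926 and 803 counts in jas-3, 1473, 1126 and 606 in DMSO, 70, 96 and 92 in Aza1 eM2, and 1007, 355, 1030 and 435 in Aza1 eM3. In both genes the Aza1 eM2 libraries did not overlap any other jas-3-background group, and for AT3G56520 the log2 fold change was −3.32 (SE 0.39, adjusted p = 0.00112).

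DOF4.3 (AT4G21040, chr4:11234807-11235505, minus strand), of the plant Dof zinc-finger family, had 2053 and 1978 counts in jas-3, 3017, 2029 and 2026 in DMSO, 215, 388 and 241 in Aza1 eM2, and 2411, 772, 2115 and 796 in Aza1 eM3, and its log2 fold change was −2.77 (SE 0.37, adjusted p = 0.00156). NF-YC6 (AT5G50480, chr5:20557574-20558487, minus strand), a subunit of the trimeric CCAAT-binding factor NF-Y, had 1597 and 1619 counts in jas-3, 2924, 2260 and 1428 in DMSO, 194, 294 and 298 in Aza1 eM2, and 2317, 841, 2003 and 807 in Aza1 eM3. It fell by a like amount, with −2.76 (SE 0.37, adjusted p = 0.00142). The MADS-box gene AT1G59920 (chr1:22059424-22059822, minus strand) had 1280 and 1091 counts in jas-3, 2005, 1094 and 851 in DMSO, 173, 197 and 151 in Aza1 eM2, and 1437, 586, 1460 and 589 in Aza1 eM3 and a log2 fold change of −2.60 (SE 0.35, adjusted p = 0.0014), but all of its bases have a copy of at least 95% similarity elsewhere in the genome, so its counts are uncertain. AT2G03290 (70.8% of bases) and AT2G19360 (50.9%) were the only other genes of the set with such copies.

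MYB22 and MYB115 lie 29806 bases apart on chromosome 5 and differed in Aza1 eM2. MYB22 had 490, 393 and 328 counts in DMSO and 54, 59 and 62 in Aza1 eM2, a log2 fold change of −2.47 (SE 0.26, adjusted p = 0.000807). MYB115, singled out after its values were seen because it had the highest estimate of the set, had 234 and 433 counts in jas-3, 194, 443 and 418 in DMSO, 476, 420 and 671 in Aza1 eM2, and 538, 676, 244 and 553 in Aza1 eM3. Its groups overlapped throughout, and the log2 fold change was 0.87 (SE 0.48, adjusted p = 0.381). The B3-family gene AT2G24700 (0.22) and the HMG-box gene AT1G55650 (−0.12) did not pass the test either.

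Genes of other functions were also among those that fell. The BPS1-like gene AT3G61500 (chr3:22760541-22762388, minus strand) had 1785 and 1393 counts in jas-3, 2211, 1317 and 941 in DMSO, 78, 155 and 59 in Aza1 eM2, and 1301, 428, 1338 and 336 in Aza1 eM3 and no count in WT. It had the lowest estimate of the set, −3.64 (SE 0.51, adjusted p = 0.00206), and 1 of the 3 highest coefficients of variation, 0.705, next to SK3 at 0.706. AT2G34890 (chr2:14718195-14721271, minus strand), a CTP synthase, the enzyme that makes CTP from UTP, had 2408 and 2980 counts in jas-3, 3937, 3312 and 2309 in DMSO, 206, 227 and 337 in Aza1 eM2, and 3114, 1251, 3072 and 1176 in Aza1 eM3 and a log2 fold change of −3.31 (SE 0.38, adjusted p = 0.00101). The uncharacterized gene AT3G24690 (chr3:9020651-9021491, plus strand) had 1410 and 1608 counts in jas-3, 2613, 2065 and 1313 in DMSO, 124, 176 and 214 in Aza1 eM2, and 1930, 504, 2018 and 518 in Aza1 eM3. For all 3 genes the 3 Aza1 eM2 libraries were the lowest of the 12, and the value for AT3G24690 was −3.22 (SE 0.50, adjusted p = 0.0034). The single highest count of the set was in AT2G04750, an actin-binding calponin-homology gene, at 5400 in DMSO replicate 1.

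Of the 10 defensin-like and cysteine-rich peptide genes, 0 passed the fold and adjusted p thresholds together in edgeR. At an adjusted p under 0.05, 4 fell, and the median was −1.32 (range −1.90 to 0.46). Per kilobase of gene, the defensin-like gene AT2G12475 (chr2:5068490-5068853, minus strand) had the highest mean level of the set over the 12 libraries, at 5130 counts per kilobase. It had 1883 and 3019 counts in jas-3, 3023, 3191 and 2718 in DMSO, 497, 998 and 664 in Aza1 eM2, and 2904, 1751, 2352 and 1323 in Aza1 eM3. Aza1 eM2 was below DMSO without overlap, by −1.78 (SE 0.27, adjusted p = 0.00227) on the log2 scale.

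LCR50 (AT2G12465, chr2:5055525-5055872, minus strand) is the neighbouring gene of AT2G12475, 12618 bases away, and these 2 are the only genes of the set next to each other in the annotation. It had 231 and 643 counts in jas-3, 439, 670 and 644 in DMSO, 126, 215 and 178 in Aza1 eM2, and 874, 464, 550 and 458 in Aza1 eM3, so that Aza1 eM2 and DMSO did not overlap, but the log2 fold change of −1.48 (SE 0.39, adjusted p = 0.0644) missed both thresholds. AT1G47317 (chr1:17347094-17347515, plus strand) had 1103 and 1378 counts in jas-3, 1625, 1812 and 1252 in DMSO, 292, 603 and 393 in Aza1 eM2, and 1360, 925, 905 and 743 in Aza1 eM3 and a log2 fold change of −1.59 (SE 0.26, adjusted p = 0.00421). AT1G13609 (chr1:4662721-4663219, plus strand) had 671 and 1234 counts in jas-3, 969, 895 and 822 in DMSO, 196, 458 and 296 in Aza1 eM2, and 885, 712, 533 and 533 in Aza1 eM3, with −1.23 (SE 0.30, adjusted p = 0.0395). In both genes all 3 Aza1 eM2 libraries were below all 3 of DMSO. Among the LCR genes, 3 chosen after their values were seen had estimates above 0, namely LCR27 at 0.05, LCR47 at 0.12 and LCR42 at 0.46, with adjusted p of 0.964, 0.921 and 0.72 in edgeR. LCR27 had 340, 598 and 601 counts in DMSO and 370, 674 and 298 in Aza1 eM2, which overlapped.

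A lipid-transfer-like gene and a glycosyltransferase-family gene were also among the highest per kilobase. AT4G08530 (chr4:5421862-5422356, plus strand), of the family of small secreted lipid-transfer-like proteins, had 482 and 998 counts in jas-3, 1268, 1309 and 1168 in DMSO, 116, 355 and 177 in Aza1 eM2, and 868, 518, 983 and 467 in Aza1 eM3, and fell, with −2.28 (SE 0.37, adjusted p = 0.00375). AT4G32100 (chr4:15511757-15512218, minus strand), annotated in a family of N-acetylglucosaminyltransferases, had 1225 and 1439 counts in jas-3, 1603, 1329 and 1110 in DMSO, 310, 378 and 570 in Aza1 eM2, and 1552, 777, 859 and 722 in Aza1 eM3 and −1.36 (SE 0.31, adjusted p = 0.0274). The 4 invertase and pectin methylesterase inhibitor genes, whose products restrain sugar cleavage or cell wall remodelling, had a median of −1.07. Only AT1G50325 fell at an adjusted p under 0.05, with −1.93 (SE 0.36, adjusted p = 0.00916).

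Genes of DNA replication and chromosomes had median counts of 71 to 405.5 over the 12 libraries, so all of them lay among the lower 41 genes, whose fall the floor of 50 limited. Of 7, 1 fell at the main thresholds and 2 at an adjusted p under 0.05, with a median of −0.66 (range −2.10 to −0.02). AT4G17240, annotated as a structural maintenance of chromosomes protein, was not placed in this group. Its log2 fold change was above the group's range, at 0.26 (SE 0.29, adjusted p = 0.696 in edgeR). TIL2, a catalytic subunit of DNA polymerase epsilon, was the gene that passed, with 824, 320 and 491 counts in DMSO, 70, 142 and 95 in Aza1 eM2 and a log2 fold change of −2.10 (SE 0.36, adjusted p = 0.00574). MCM10, which acts in the start of replication, had 236, 152 and 120 in DMSO and 52, 70 and 72 in Aza1 eM2. Its value was −1.07 (SE 0.23, adjusted p = 0.0183).

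Haspin (AT1G09450, chr1:3049024-3053112, plus strand), a mitotic histone kinase, had the smallest coefficient of variation of the set, 0.216. It had 383 and 320 counts in jas-3, 306, 205 and 154 in DMSO, 154, 220 and 156 in Aza1 eM2, and 265, 259, 319 and 204 in Aza1 eM3, and 2 counts in each WT library. DMSO and Aza1 eM2 overlapped, with −0.02 (SE 0.19, adjusted p = 0.969). AT4G12540 (153, 123 and 112 in DMSO and 81, 130 and 87 in Aza1 eM2) and AT4G17240 (166, 138 and 72 and 88, 159 and 120) were the next steadiest, with log2 fold changes of −0.09 and 0.26 that did not pass the test. CDC45, a part of the replicative helicase, sat on the floor of the rule with 127 and 90 counts in jas-3, 137, 89 and 60 in DMSO, 57, 76 and 57 in Aza1 eM2, and 50, 66, 146 and 59 in Aza1 eM3. Its groups overlapped, and the log2 fold change was −0.28 (SE 0.36, adjusted p = 0.737).

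**Figure D4:**
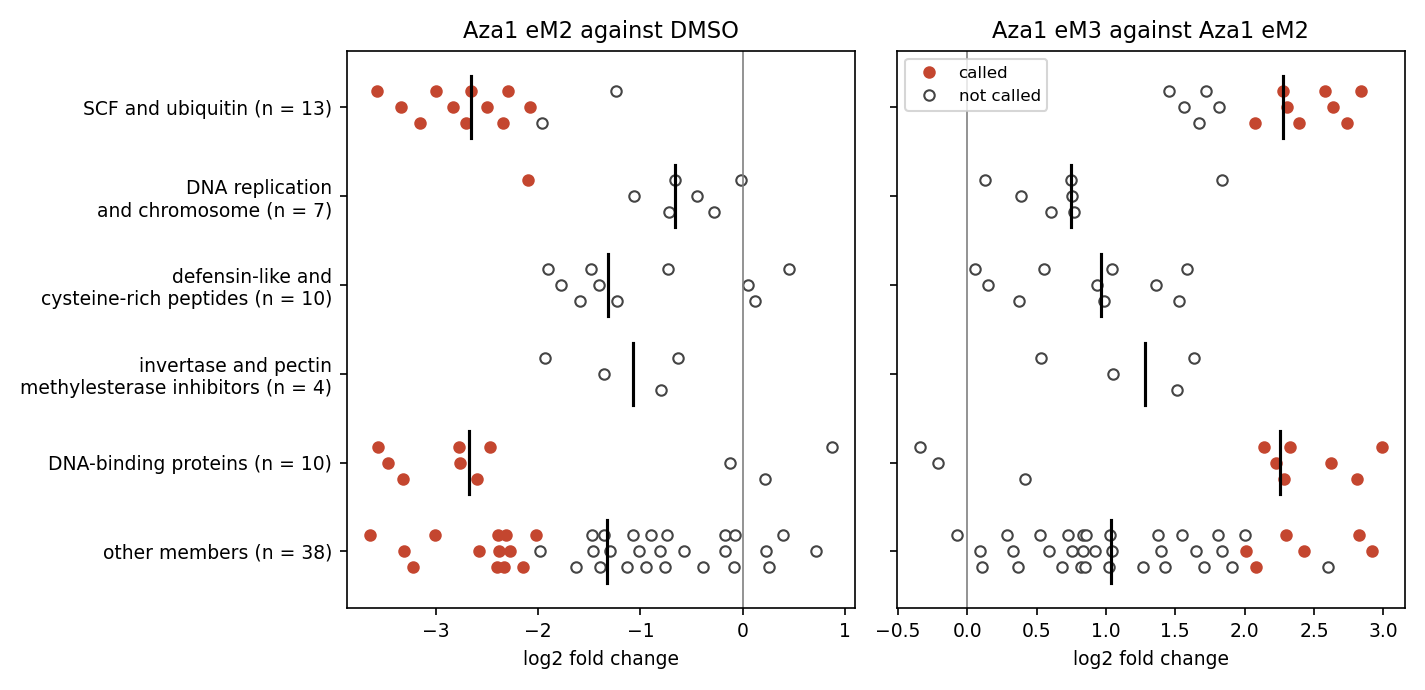
Log2 fold change of each of the 82 genes in Aza1 eM2 against DMSO and in Aza1 eM3 against Aza1 eM2, by group of products, with filled points for called genes and a line at the median of the group. SCF and ubiquitin genes had medians of −2.65 and 2.28, and DNA replication and chromosome genes −0.66 and 0.75. Both comparisons use the same Aza1 eM2 libraries.

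At the edge of the rule, CDC45, AT3G52630 and AT5G04045 were just inside the floor, each with a lowest count of 50. AT3G52630, an OB-fold nucleic acid-binding gene, had 132 and 58 counts in jas-3, 146, 128 and 66 in DMSO, 50, 66 and 58 in Aza1 eM2, and 114, 88, 150 and 56 in Aza1 eM3, and AT5G04045, a putative membrane lipoprotein, had 344 and 386 counts in jas-3, 498, 408 and 286 in DMSO, 50, 112 and 79 in Aza1 eM2, and 393, 216, 358 and 181 in Aza1 eM3. For AT5G04045 the Aza1 eM2 libraries were the lowest of the 12. Just outside, AT2G42460, AT4G22060 and AT4G33870 each had a lowest count of 48, in 1 or more Aza1 eM2 libraries, and AT1G11540, AT1G23410 and AT1G23590 were outside through a WT count of 4.

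In the opposite direction, with Aza1 eM2 higher, counts did not overlap for 1 of the 82 genes (1.22%), near the share of all tested genes. AT4G10490, a 2-oxoglutarate and iron-dependent oxygenase gene named here because it was the only gene of the set with non-overlapping counts in that direction (1.53% of tested genes), had 1445 and 1323 counts in jas-3, 1147, 1131 and 844 in DMSO, 1417, 1498 and 1235 in Aza1 eM2, and 1229, 1939, 1522 and 1921 in Aza1 eM3. The estimate was 0.71 (SE 0.22, adjusted p = 0.121) in edgeR's quasi-likelihood test, so it did not pass either threshold.

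The comparison of Aza1 eM3 with Aza1 eM2 followed the genes into the next generation, and it shares the Aza1 eM2 libraries with the comparison above. Of the 82, 21 rose and 0 fell at the main thresholds (25.6%, beside 0.868% and 0.0626% of tested genes in edgeR). At an adjusted p under 0.05, 44 rose (2.77% of tested genes), and at an unadjusted p under 0.05, 64 rose (9.28%) and 0 fell (5.18%). DESeq2 called 23 up and 0 down. The median log2 fold change was 1.38 (range −0.34 to 2.99), and Aza1 eM3 was above Aza1 eM2 without overlap for 59 genes and below it for 0, beside 11.7% and 1.1% of tested genes. The count of 21 was 0 without Aza1 eM2 replicate 1 or without replicate 2 of that group, 2 without its replicate 3, 11 without Aza1 eM3 replicate 1, 7 without Aza1 eM3 replicate 3 and 12 without DMSO replicate 2, and it was 0 when only these 2 groups were fitted. At an adjusted p under 0.05 the count over the left-out libraries stayed between 27 and 45.

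By group of products, 8 of 13 SCF and ubiquitin genes rose at the main thresholds and 13 at an adjusted p under 0.05, with a median of 2.28. Of DNA-binding protein genes, 7 of 10 rose (median 2.26), and of defensin-like and cysteine-rich genes 0 of 10 rose at the main thresholds and 4 at an adjusted p under 0.05 (median 0.96). Of the 7 DNA replication and chromosome genes, 0 rose at the main thresholds and 1 at an adjusted p under 0.05 (median 0.75). AT4G17240, left outside this group, had a log2 fold change of 0.09. The E2F/DP-like gene AT4G18870 had the highest value, 2.99 (SE 0.41, adjusted p = 0.00305), followed by AT3G61500 with 2.92 (SE 0.49, adjusted p = 0.00742). AT3G59610 rose by 2.84 (SE 0.34, adjusted p = 0.00256), AT2G34890 by 2.82 (SE 0.36, adjusted p = 0.00256) and AT3G56520 by 2.81 (SE 0.37, adjusted p = 0.00307). SK3 rose by 2.74 (SE 0.40, adjusted p = 0.00384), and AT3G24690, with 2.60 (SE 0.48, adjusted p = 0.0121), missed the adjusted p of 0.01.

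The 4 Aza1 eM3 libraries were not alike. Replicates 1 and 3 were both above replicates 2 and 4 in 60 of the 82 genes (73.2%), beside 55.3% of all tested genes. SK3 had 2376 and 2488 counts in replicates 1 and 3, and 852 and 860 in replicates 2 and 4. The storage genes had the lower shares in replicates 1 and 3 (19.1% and 15.0%) and the higher in 2 and 4 (27.1% and 27.8%), and their part in the result was not tested.

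Aza1 eM3 against DMSO gave 0 called genes of the 82 in either direction, and 0% of all tested genes were called in edgeR. At an unadjusted p under 0.05, 2 of the 82 were higher and 5 lower, beside 4.29% and 2.98% of tested genes, and DESeq2 called 0. The median log2 fold change was −0.28 (range −0.84 to 0.83). SK3 and AT4G04580 were at the low end, each at −0.84, and LCR42 was at the high end. Counts of the groups did not overlap for 1 gene with Aza1 eM3 higher and 2 with it lower, beside 1.73% and 4.4% of tested genes.

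DMSO against jas-3 compared the solvent controls with untreated plants. At the main thresholds 0 of the 82 genes were called in edgeR, beside 0.0894% of tested genes called up and 0.121% called down, and DESeq2 called 0. At an unadjusted p under 0.05, SHT, a spermidine hydroxycinnamoyl transferase known for work on the pollen coat, was higher and Haspin was lower, beside 4.76% and 6.37% of tested genes. None was called at an adjusted p under 0.05, beside 0.599% up and 1% down. Counts did not overlap for 5 genes with DMSO higher and 7 with it lower, beside 6.88% and 16.4%. The median was 0.18 (range −0.63 to 0.83), and it was −0.045 without jas-3 replicate 1 and −0.0061 without DMSO replicate 1.

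The genes also shared features that the rule had not used. They were short, with a median of 940 exon bases and 2 exons, beside 1582 bases and 4 exons in other protein-coding genes, although single-exon genes were about as common (20.7% beside 19.6%). An annotated transposable element overlapped 26 of the 82 (31.7%, beside 10.7% of all genes), and 62 had 1 within 1000 bases (75.6%, beside 37.1%). Of 110 elements within 1000 bases and not overlapping, 66 were Helitrons (60%, beside 41.5% of all annotated elements) and 19 were of the MuDR family (17.3%, beside 17.3%). All annotated elements include those far from genes. The families near other genes were not counted, so whether the Helitron share is particular to the set was not tested. None of the 110 met the count rule itself.

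**Figure D5:**
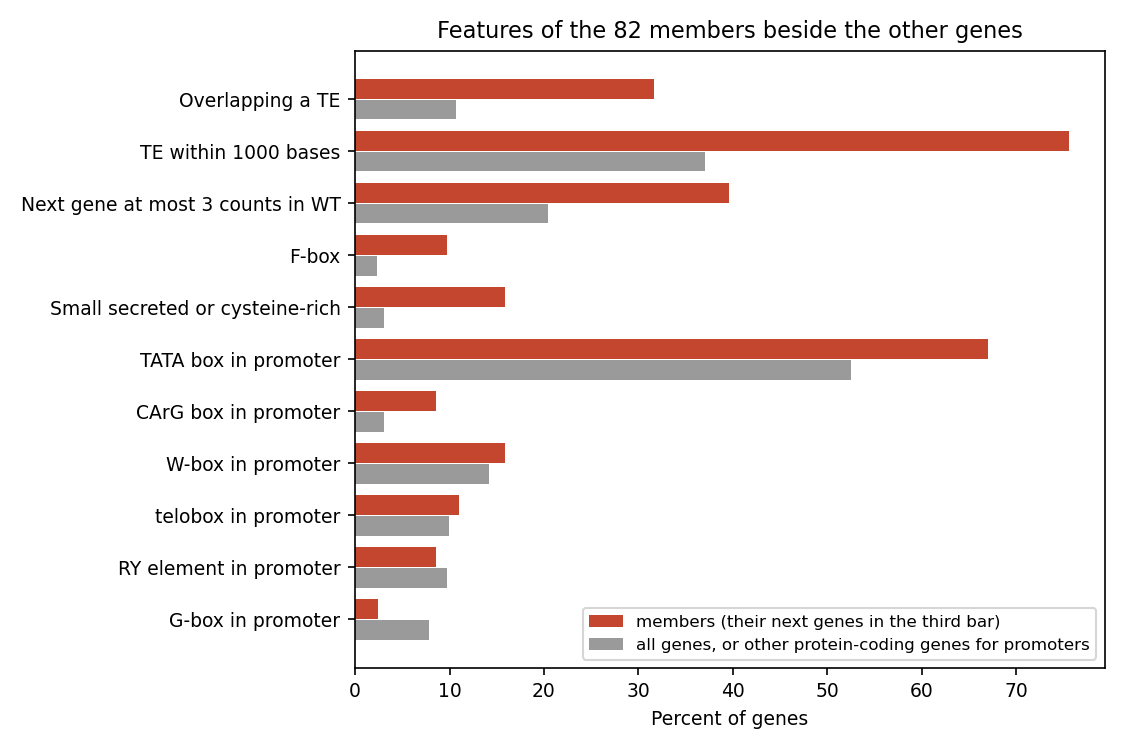
Percent of the 82 genes and of the comparison genes that have each feature. A transposable element lay within 1000 bases of 75.6% of the 82 genes and 37.1% of all genes, and F-box products made up 9.76% and 2.30%.

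The genes were spread over all 5 chromosomes, with 16, 18, 18, 14 and 16 on chromosomes 1 to 5. Beside LCR50 and AT2G12475, the pairs within 50000 bases were TFL1 and AT5G03870 (9846 bases apart), MYB115 and MYB22, and AT5G37473 and AT5G37520 (31517). Of the 164 flanking genes, 65 (39.6%) had at most 3 counts in both WT libraries, beside 20.5% of all genes, and 22 (13.4%) had at most 3 in all 14 libraries, beside 10.1%. Of 119 flanking genes tested, 6 (5.04%) were called down in Aza1 eM2 against DMSO, beside 1.44% of all tested genes. These were AT5G50490 beside NF-YC6 (−4.06), AT5G52140 (−4.36) and AT5G52160 (−3.13) on either side of the RING/U-box gene AT5G52150, AT4G18860 beside AT4G18870 (−3.09), AT1G59930 beside AT1G59920 (−2.58) and AT5G04047 beside AT5G04045 (−2.02). None of the 6 is in the set. SHT overlaps AT2G19060 by 508 bases and AT5G66710 overlaps AT5G66720 by 5, and since it is not stated whether counting used strand, such reads may belong to either gene.

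Lists of endosperm genes chosen for this tissue held none of the 82, which the rule itself fixed. No gene of these lists met its count thresholds, and the rule also excluded paternally expressed genes and some regulators by name. PHE1, for example, had 22, 48 and 8 counts in Aza1 eM2, under the floor of 50. Of 36 type I MADS-box genes, 21 were tested, and 10 of these fell in Aza1 eM2 against DMSO (12 at an adjusted p under 0.05, median −4.03). Of 20 tested early endosperm regulators 5 fell, but the 2 lists share genes. Among these 5, PHE1, PHE2, AGL61 and AGL40 are also type I MADS-box genes counted above, and only FWA is not. Of 8 genes of the endosperm and embryo dialogue 0 fell, with 0 also at an adjusted p under 0.05 in edgeR. Of the 9 storage genes 0 were called either way (median 0.88).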

How the data were processed

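Per the submitters' processing notes, reads of the 14 libraries were aligned with STAR to TAIR10, and the authors deposited 1 file per library with whole-number counts per gene, transposable element and intergenic interval, not normalized. The study's methods name DESeq2 for counting and normalization, and the use of strand is not given in the sources used here. Even values made up 73.7% to 79.0% of counts from 1 to 20, so p-values and zero limits rest on fewer fragments than counts and zero limits cover counting error only. Total gene counts were 40526464 to 43974069.

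Counts of all genes were fitted in 1 model over the 14 libraries with edgeR 4.0.16 (R 4.3.3, TMM, filterByExpr by group, quasi-likelihood test, Benjamini-Hochberg over 22359 genes, all 82 members among them). A call needed a change of 2 or more on the log2 scale and an adjusted p under 0.01. The script was tested on simulated data. Alternatives were DESeq2 1.42.0, its size factors, other filters, thresholds and sets of libraries, a replicate block, the storage share as a covariate and each library left out. Counts at an adjusted p under 0.05 in the other alternatives were added after seeing the data.

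The 82 genes, gene lists and product groups were chosen with earlier results of these data known. Genes named by rule were the 10 highest per kilobase, the 5 lowest and 5 highest fold changes called in each comparison, neighbours in the set, and the 3 at the floor and at each end of the coefficient of variation. All others were named after their values were seen. Promoters and structures come from RefSeq TAIR10.1, whose 5 nuclear chromosomes have the lengths of the files' build. Of the 82 genes, 43 have the same start and end in both, and all overlap. Copies were searched with blast 2.17.0.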

Additional observations from a re-analysis of the deposited data

Results flagged for a closer look

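In Aza1 eM3, replicate 3 had 146 counts of CDC45, away from the 50, 66 and 59 of replicates 1, 2 and 4. Replicate 1 of the same group had 1552 counts of AT4G32100, away from 777, 859 and 722. In each case the gap to the nearest library took most of the range of the 4 (0.833 and 0.835 of it, past Dixon's limit), and chance gives such a gap in about 5% of groups, beside 2 of the 82 genes here (2.44%).

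Part of the set differed between generations. In Aza1 eM3 against Aza1 eM2, 21 of the 82 rose in edgeR's quasi-likelihood test (0 without Aza1 eM2 replicate 1 or without its replicate 2), all of them among the 32 that had fallen in Aza1 eM2 against DMSO, and the 2 comparisons share the Aza1 eM2 libraries.

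Outside the genes, 134 intergenic intervals flank the 82 genes, and 125 of them had at most 3 counts in both WT libraries. Of these, 5 had at least 50 counts in all 12 other libraries, beside AT1G47317, AT2G12475, DOF4.3, LCR27 and AT5G37520. The interval next to AT5G37520, 505 bases long, had 0 and 1 counts in WT, 722, 564 and 588 in DMSO and 84, 111 and 118 in Aza1 eM2. The interval next to LCR27 had 66, 141 and 144 in DMSO and 91, 140 and 67 in Aza1 eM2, which overlapped.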

How the results depend on the processing

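The number of genes that fell in Aza1 eM2 against DMSO (32) was 19 with the storage share as a covariate, 26 with the replicate block, 31 with only the 2 groups fitted, and 7 (without Aza1 eM2 replicate 1) to 33 (without DMSO replicate 3) over the left-out libraries. The number that rose in Aza1 eM3 against Aza1 eM2 (21) was 44 at an adjusted p under 0.05 with no fold minimum, 0 with only the 2 groups fitted, 10 with the replicate block, 14 with the covariate, and 0 to 25 over the left-out libraries. At an adjusted p under 0.05, a count added after seeing the data, 36 to 54 fell and 39 to 53 rose over the alternatives, and 38 to 49 fell and 27 to 45 rose over the left-out libraries. Median log2 fold changes stayed between −1.59 and −1.34 and between 1.13 and 1.49 over the left-out libraries. The cause of these differences was not tested. The median in DMSO against jas-3 (0.18) ranged from −0.045 to 0.32 over the left-out libraries and was below 0 without jas-3 replicate 1 (−0.045) and without DMSO replicate 1 (−0.0061).

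The rule gave 45 genes with at most 0 counts in WT, 229 with at most 10, 175 with at least 20 counts elsewhere, 39 with at least 100, and 139 to 167 with 1 WT library left out. Without storage genes in the denominator, the share of the 82 genes was 0.000212% in WT, 0.177% in jas-3 and 0.0530% in Aza1 eM2. Single genes were checked only where they were named by rule and called at the main thresholds. For these no alternative reversed a direction, but of 161 values under other settings 23 no longer passed the thresholds, as did 69 of 322 with a library left out.

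Replicate numbers were not taken to pair the libraries, since no comparison had 3 pairs all correlated above 0.1: same-numbered deviations correlated at −0.20 to 0.11 between Aza1 eM2 and DMSO, −0.20 to −0.18 between Aza1 eM3 and Aza1 eM2, −0.26 to 0.29 between Aza1 eM3 and DMSO, and 0.20 and 0.53 in the 2 pairs of DMSO and jas-3, so the block results are given here only.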
